A study of Mus musculus with 2 samples.

Results

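A set of 10 genes of the p53 pathway was followed in total RNA of G1E cells: Trp53, which encodes p53, its regulators Mdm2 and Mdm4, and the p53 target genes Ccng1, Cdkn1a, Gadd45a, Trp53inp1, Sesn1, Zmat3 and Aen. They were taken by gene symbol and make up 10 of the 43346 genes in the deposited tables, and all 10 were present in both libraries. G1E is an immortalized line of C57BL/6J origin that the labels describe as a Gata1- erythroid progenitor, male, postnatal, with an age of 0 day. The series holds 1 group, G1E with no treatment named, as 2 libraries numbered as biological replicates 1 and 2. Each library was made with ScriptSeq from 100 ng of RNA depleted of ribosomal RNA, with a size range of 200 to 1000 nt. There is no control line, no restored Gata1 and no DNA-damaging treatment among the samples, so only levels within the line, differences between genes and the spread between the libraries can be given.

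p53 is a transcription factor that is kept scarce in unstressed cells mainly by turnover of the protein. Mdm2, a ubiquitin ligase, marks p53 for degradation, and its relative Mdm4 (also called MdmX) binds and masks the activation domain of p53. On DNA damage p53 is released and raises a set of targets that arrest the cell cycle, repair DNA, limit growth signalling or start cell death, and Mdm2 is itself such a target, which closes a feedback loop. In erythroid cells the pathway is known from ribosome defects, in which ribosomal proteins bind Mdm2 and p53 rises. RNA levels as measured here do not report p53 protein or its activity.

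Levels are given in TPM, a share of all transcripts that is corrected for length and so allows genes to be compared, as the mean ± SD of the libraries (n = 2 throughout). The libraries held 58094631 and 55274368 expected counts on genes. The 21461 protein-coding genes of the nuclear genome took 18% and 17% of the TPM, so TPM values of mRNAs here are small in absolute terms. All 9 markers of erythroid progenitors were detected, meaning at least 1 TPM in both libraries, with a summed level of 279.9 and 256.1 TPM. Kit was the highest of them, at 96.93 and 80.04 TPM, and Epor the lowest, at 2.24 and 3.24. No mast cell or megakaryocyte markers were listed, so the line was not compared with these lineages. Of 22 markers of other cell types 1 was detected, the macrophage gene Lyz2, at 1.34 and 1.33 TPM. The summed level of the granulocyte and macrophage markers was 2.54 and 2.48 TPM, that of the lymphoid markers 0.44 and 0.69, that of the fibroblast markers 0.55 and 0.13, and that of the pluripotent stem cell markers 0.09 and 0.03. Gata1 held 7.06 and 7.13 TPM, a gene total that does not check the label, since the labels do not say which part of the gene was altered. The label male was not matched by Y-linked transcripts: Ddx3y and Uty held 0 counts in both libraries, Kdm5d held 2 in each, and Eif2s3y held 0 and 3. In a bulk sample, fewer cells with a transcript and less of it per cell cannot be told apart.

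Of the 10 genes, 9 were detected in both libraries, against 38.7% of nuclear protein-coding genes. Zmat3 was the exception, with 0.98 TPM in replicate 1 and 0.77 in replicate 2. It was not absent, with 999 and 850 counts. Rescaled to nuclear protein-coding genes alone it was at 5.43 and 4.54 TPM. The median of the 10 mean levels was 9.24 TPM. Over all nuclear protein-coding genes the median was 0.055 TPM, and over those detected it was 7 TPM. Trp53, Sesn1, Trp53inp1 and Aen lay nearest the median of the detected genes, from 9.84 down to 7.485 TPM. Ccng1, Mdm4, Gadd45a and Mdm2 lay well above it, at 16.32 TPM or more, and Cdkn1a and Zmat3 below it. No reads of 9 of the genes were shared with other genes, to judge by a posterior SD of 0 for their counts, and for Mdm4 this SD was 0.32 and 0.15 counts.

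**Figure D1:**
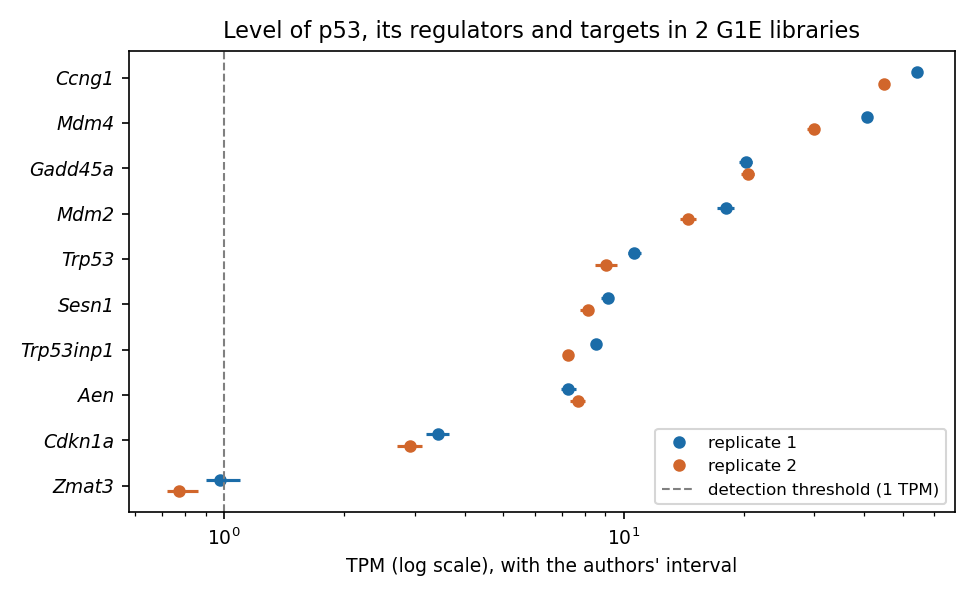
TPM of the 10 genes on a log scale, 1 point per library with the authors' interval as a horizontal line (the sources used here do not state its level). Ccng1 was highest at 54.11 and 44.76 TPM, and Zmat3, at 0.98 and 0.77, was left of the dashed line at 1 TPM.

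Trp53 (ENSMUSG00000059552.9, chr11:69580359-69591873, plus strand, mm10) held 2926 expected counts in replicate 1 and 2418 in replicate 2. Its level was 10.63 and 9.05 TPM, or 9.84 ± 1.12, which placed it above 85.5% of nuclear protein-coding genes. Replicate 1 was the higher, and the authors' intervals of 10.24 to 11.09 and 8.51 to 9.65 TPM did not overlap. Its RNA was nearly all coding: 95.6% and 89.4% of the gene's TPM fell on 4 protein-coding transcripts. Those with the shorter last exon, Trp53-201 and Trp53-203, differ by 1 base at their 3′ end in the GENCODE annotation. The tables split them in opposite ways in the libraries, with 51.31% and 31.25% on the former and 36.01% and 49.67% on the latter. The posterior SD of 743.79 counts on a mean of 1115.42 for Trp53-201 in replicate 1 shows that reads do not separate them. Pooled, they made up 87.4% and 81.0% of the TPM of Trp53.

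A minor form of Trp53 RNA carries a last exon that starts 96 bases earlier, at chr11:69591254-69591349, and replaces the C-terminal regulatory region of p53 with another end. Its transcripts, Trp53-202 and Trp53-206, held 237.9 and 211.6 counts, or 8.19% and 8.41% of the TPM of the gene. Both libraries gave nearly the same share for this form. The whole stretch of 96 bases is absent from Trp53-201 and Trp53-203. Its coding part is shown (52 of the 96 bases, chr11:69591254-69591305, plus strand, from the GENCODE transcripts).
Trp53 last exon extension: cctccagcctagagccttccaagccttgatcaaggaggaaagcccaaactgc
The rest of the Trp53 RNA was not coding. Trp53-205, which keeps 5 stretches of intron, held 4.46% and 4.55% of the TPM and 8.38% and 8.94% of the counts. The short Trp53-204 was at 0 in replicate 1 and rested on 20.05 counts in replicate 2, although this gave it 6.12% of the TPM there.

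Mdm2 (ENSMUSG00000020184.10, chr10:117688875-117710758, minus strand) held 5898 and 5283 expected counts, and a level of 18.1 and 14.53 TPM (16.3 ± 2.52). It was higher in replicate 1 in TPM, with authors' intervals of 17.18 to 18.86 and 13.82 to 15.19 TPM that did not overlap, but not in counts scaled by library size, whose log2 ratio of replicate 2 to replicate 1 was 0.00. The effective length behind the TPM moved from 1930.26 to 2134.67 nt between the libraries. Mdm2 was the gene with the lowest coding share of TPM of the 10: protein-coding transcripts took 30.3% and 37.1% of its TPM, which is 5.48 and 5.39 TPM. By counts, which favour long transcripts, the coding share was 45.1% and 50.4%. In coding transcripts alone the libraries were close, at 5.44 ± 0.0636 TPM.

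The transcript of Mdm2 with the most RNA, the full-length coding Mdm2-201, held 29.15% and 34.0% of the TPM. Mdm2-209, annotated as a target of nonsense-mediated decay (the pathway that removes mRNAs with an early stop), held 4.65 and 3.9 TPM, or 25.68% and 26.85%. By counts it was second in both libraries, with 34.0% and 32.4%; by TPM it was second in replicate 2 and just behind the short Mdm2-206 in replicate 1. Mdm2-209 lacks a 97-base coding exon (chr10:117695953-117696049, minus strand, from the GENCODE transcripts), a length that is not a multiple of 3. The exon is printed because Mdm2-201 holds it and Mdm2-209 does not.
Mdm2 skipped exon: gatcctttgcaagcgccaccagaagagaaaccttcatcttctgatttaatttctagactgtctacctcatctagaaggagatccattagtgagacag
Mdm2-206, a processed transcript of 683 nt that ends inside the gene, was the part of Mdm2 that differed most in TPM between the libraries. It held 4.75 TPM in replicate 1 and 2.04 in replicate 2, or 26.25% and 14.04%, from 377.69 and 170.75 counts.

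Mdm2 is known to be transcribed from an upstream promoter and from an inner one in its first intron, of which the inner one is the promoter that p53 drives. Transcripts with 5′ ends between 117710758 and 117710685 on chromosome 10, the upstream group, took 42.6% and 50.03% of the TPM and 58.1% and 62.2% of the counts. Transcripts with 5′ ends between 117710292 and 117710022, in and just after the first intron, took 54.5% and 45.4% of the TPM and 40.8% and 36.3% of the counts. Which group was larger thus depended on the measure: by counts it was the upstream group in both libraries, and by TPM the order turned between the libraries. The grouping rests on 5′ ends annotated in GENCODE M21, where Mdm2-201 and Mdm2-202 differ in length from those quantified, and not on measured start sites, and fragments from the exons they share were divided by the authors' model.

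Mdm4 (ENSMUSG00000054387.9, chr1:132959484-133030561, minus strand) was the second highest of the 10 genes. It held 22101.90 and 16805.99 counts and 40.6 and 30.02 TPM, or 35.3 ± 7.48, with replicate 1 higher. A single long coding transcript, Mdm4-210 (7105 nt), carried 81.6% and 82.8% of its counts but 38.18% and 39.37% of its TPM. The gap lay in short retained-intron transcripts, in which few reads weigh heavily per length: this class held 50.2% and 48.1% of the TPM against 9.86% and 9.62% of the counts. Mdm4-209, of 612 nt, reached 6.69 and 5.4 TPM from 451.45 and 387.02 counts, and Mdm4-211, of 762 nt, reached 8.62 and 5.09 TPM from 799.52 and 494.42 counts. Both start inside the gene, so nuclear RNA not yet spliced and separate short transcripts cannot be told apart in these tables. All coding transcripts of Mdm4 together held 16.74 and 12.04 TPM (14.4 ± 3.32).

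The exon skip known as Mdm4-S, which shifts the reading frame and leaves little full-length Mdm4 protein, was seen as a minor form. Mdm4-214, the annotated transcript without the 68-base exon at chr1:133004654-133004721 (minus strand), held 1356.08 and 955.41 counts. This was 7.65% and 7.17% of the TPM and 6.14% and 5.69% of the counts of Mdm4, with the libraries close to each other. The exon, read from the GENCODE transcripts, is shown because its presence or absence decides the frame.
Mdm4 skipped exon: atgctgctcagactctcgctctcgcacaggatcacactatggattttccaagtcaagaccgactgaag
A pseudogene on the opposite strand within Mdm4, Gm29257, held 62.19 and 34.46 counts. Whether reads were counted by strand is unknown here, and these counts were far below those of Mdm4.

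**Figure D2:**
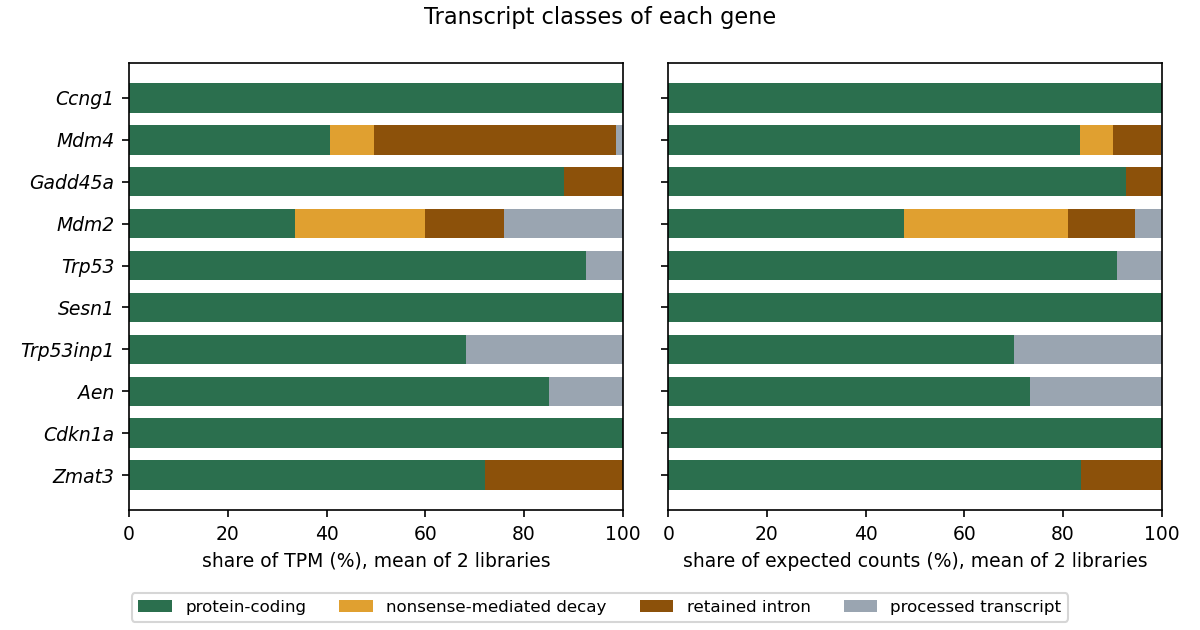
Share of each gene's TPM (left) and expected counts (right) in 4 classes of transcript, as stacked bars of the mean over the 2 libraries in percent. Mdm4 changed most between the panels, with retained-intron transcripts at 50.2% and 48.1% of TPM in the 2 libraries but 9.86% and 9.62% of counts.

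The order of p53 and its regulators was Mdm4 over Mdm2 over Trp53 in both libraries. Differences between genes are given as log2 ratios of TPM + 1 and were called where they exceeded a limit set from the pooled spread between the libraries in the same range of levels: 0.75 where both genes lay between 1 and 10 TPM, and 1.05 where either lay between 10 and 100. No spread was estimated below 1 TPM, and a gene under it was given the limit of the lowest range, 1 to 10 TPM. Trp53 was below Mdm4 by more than this limit, with a log2 ratio of -1.73 ± 0.15. Trp53 against Mdm2 gave -0.67 ± 0.06 and was within the limit, so these neighbours did not differ beyond the spread. Mdm2 against Mdm4 gave -1.06 ± 0.09, just past the limit of 1.05, and the call was lost without replicate 1, at -1.0, and with a pseudocount of 0.1, with rescaled TPM and with posterior mean TPM. When coding transcripts alone were counted, a setting chosen after the data were seen, Trp53 stood above Mdm2, with a ratio of 0.64 ± 0.20, again within the limit. Trp53 against Mdm4 then narrowed to -0.60, also within it, whereas Mdm2 against Mdm4 was -1.24 ± 0.30.

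**Figure D3:**
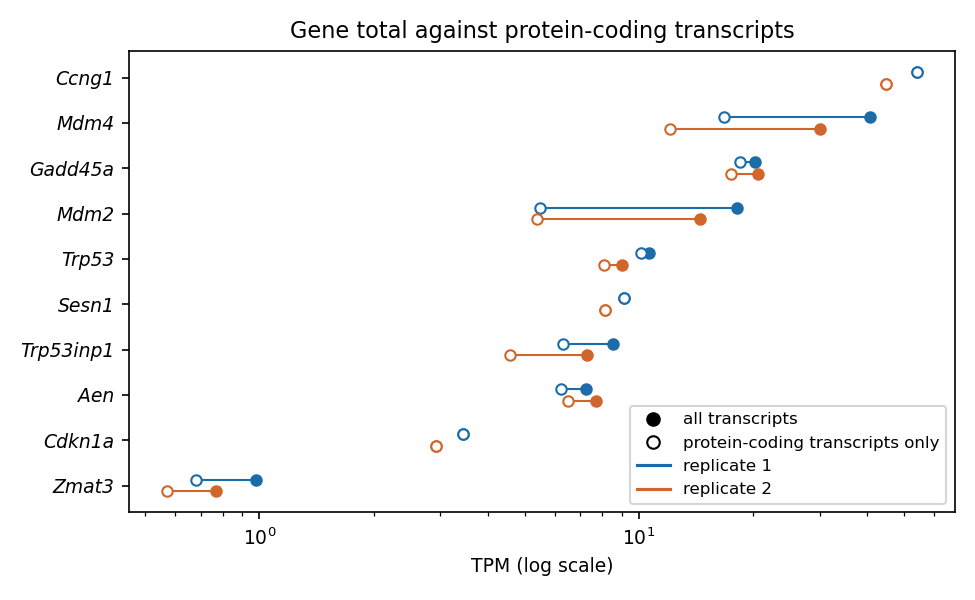
TPM of each gene over all its transcripts (filled points) and over its protein-coding transcripts only (open points), on a log scale, with 1 line per library. Mdm2 and Mdm4 moved furthest, Mdm2 from 18.1 and 14.53 to 5.48 and 5.39 TPM, while Ccng1, Sesn1 and Cdkn1a were at or next to the same value.

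Ccng1 (ENSMUSG00000020326.7, chr11:40748552-40755311, minus strand) encodes cyclin G1, a p53 target that recruits a phosphatase to Mdm2. It was the highest of the 10 genes, with 30138 and 25308 counts and 54.11 and 44.76 TPM (49.4 ± 6.61). A single coding transcript, Ccng1-201, held 100% of it in both libraries. Its paralog Ccng2, which responds to other signals, reached 41.9 ± 6.43 TPM. The log2 ratio of Ccng1 over Ccng2 was 0.23 ± 0.03, within the limit of 1.05.

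Cdkn1a (ENSMUSG00000023067.9, chr17:29090976-29100727, plus strand) encodes p21, the inhibitor of cyclin-dependent kinases that carries out much of the arrest p53 sets. It was low, with 930 and 835 counts and 3.43 and 2.92 TPM (3.18 ± 0.361). Cdkn1b, which encodes the related inhibitor p27, was at 15.4 and 12.98 TPM, and Cdkn1c, which encodes p57, held 1 and 3 counts. Cdkn1a thus lay below Cdkn1b, with a log2 ratio of -1.86 ± 0.04, and above Cdkn1c, at 2.05 ± 0.13, both past their limits. Nearly all Cdkn1a RNA belonged to Cdkn1a-201, which starts at position 29093769 and held 3.15 and 2.81 TPM, or 91.92% and 96.24%. Cdkn1a-202, which starts upstream at 29090979, rested on 14.08 and 2.57 counts, or 0.16 and 0.03 TPM. At so few counts no difference between the libraries can be read for this start. Starts are those of GENCODE M21, in which all 3 Cdkn1a transcripts differ in length from those quantified.

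The starts of Cdkn1a differ in sequence as well as in RNA, and the 250 bases before each are shown for that reason (RefSeq starts, GRCm38.p6, plus strand, chr17:29090729-29090978 and chr17:29093519-29093768). Capitals mark 10-base sites of the p53 response element consensus. The search asked for a pair of such sites with CNNG as the core, each N being A or T, and a gap of 0 to 13 bases between the sites and with at most 1 mismatch outside the cores. The consensus reads the same on both strands.
Cdkn1a start at 29090979: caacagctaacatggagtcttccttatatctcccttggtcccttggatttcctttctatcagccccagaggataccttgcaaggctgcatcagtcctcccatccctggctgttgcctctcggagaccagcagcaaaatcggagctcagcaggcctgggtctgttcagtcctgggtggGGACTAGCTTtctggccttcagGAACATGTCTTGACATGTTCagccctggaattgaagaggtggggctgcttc
Cdkn1a start at 29093769: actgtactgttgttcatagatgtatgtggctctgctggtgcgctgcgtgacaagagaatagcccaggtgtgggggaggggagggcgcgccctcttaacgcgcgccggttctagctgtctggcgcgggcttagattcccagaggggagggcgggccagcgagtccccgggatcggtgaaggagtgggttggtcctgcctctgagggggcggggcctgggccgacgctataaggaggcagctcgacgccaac
Before the upstream start lay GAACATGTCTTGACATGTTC (chr17:29090928-29090947), 32 to 51 bases from it, with 1 mismatch and no spacer. An overlapping pair at chr17:29090906-29090937 shared a site with it and had 0 mismatches and a spacer of 12 bases. No match lay in the 250 bases before the start that carried 91.92% and 96.24% of the RNA. The pairs at the upstream start also lie before this start on the same strand, but outside those 250 bases. The same search over windows of 300 bases, 250 before and 50 after each RefSeq start, found a match in 137 of 32851 promoters, or 0.417%. RefSeq held 12 such promoters for 8 of the 10 genes, and 11 of the 12 had no match. For Mdm2 this was the upstream start at 117710758 alone, and the inner promoter was not searched. A match describes letters and not binding.

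Gadd45a (ENSMUSG00000036390.6, chr6:67035096-67037457, minus strand), a stress sensor in DNA repair and arrest, held 3325 and 3378 counts. Its level was 20.24 and 20.54 TPM (20.4 ± 0.212), close between the libraries in TPM, while the log2 ratio of TMM-scaled counts was 0.19. The coding transcript Gadd45a-201 took 91.36% and 85.03%. Transcripts with a retained intron took 8.60% and 15.0% of the TPM, higher in replicate 2, with 141.06 and 260.60 counts on the main one, Gadd45a-202. An antisense gene, E230016M11Rik, overlaps Gadd45a and held 199 and 237 counts. The posterior SD of the Gadd45a counts was 0 in both libraries, so no reads appear to have been divided between Gadd45a and another gene. Whether reads were counted by strand is unknown here. Gadd45a stood far above its paralogs: its log2 ratio was 4.13 ± 0.01 over Gadd45b, at 0.21 and 0.24 TPM, and 1.72 ± 0.18 over Gadd45g, at 6.03 and 4.99 TPM.

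Sesn1 (ENSMUSG00000038332.8, chr10:41809935-41908424, plus strand) encodes sestrin 1, which restrains growth signalling through mTORC1. It held 3802 and 3402 counts and 9.15 and 8.14 TPM (8.65 ± 0.714). The transcript from the inner start at 41887439, Sesn1-201, made up 87.2% and 91.73% of the TPM, and Sesn1-202, from the start at 41809935, made up 12.8% and 8.27%, though its length in GENCODE M21, the source of the starts, is not the one quantified. Sesn1 was the leading sestrin of the line. Its log2 ratio was 1.99 ± 0.13 over Sesn2, at 1.4 and 1.46 TPM, and 3.25 ± 0.14 over Sesn3, which held 0 and 10 counts.

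Trp53inp1 (ENSMUSG00000028211.7, chr4:11156431-11174379, plus strand) encodes a stress protein that promotes cell death and autophagy. It held 7310 and 6311 counts and 8.55 and 7.28 TPM (7.92 ± 0.898), against 0.6 and 0.75 TPM for its paralog Trp53inp2, a log2 ratio of 2.41 ± 0.24. The coding Trp53inp1-201 took 73.91% and 62.74% of the TPM. Trp53inp1-202, for which no coding sequence is annotated, took 22.7% and 33.76%, from 1709.60 and 2192.96 counts with a posterior SD of 171.40 and 171.95. Its share was higher in replicate 2. It differs from the coding transcript mainly by a 38-base exon at chr4:11167897-11167934, inside the coding span, printed here because the shares rest on reads over it (GENCODE transcripts).
Trp53inp1 extra exon: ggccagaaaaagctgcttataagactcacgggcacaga

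Aen (ENSMUSG00000030609.14, chr7:78895854-78911209, plus strand) encodes a nuclease of p53-induced cell death. It held 2913 and 3097 counts and 7.26 and 7.71 TPM (7.49 ± 0.318), and only this gene and Gadd45a of the 10 had a higher TPM in replicate 2. Aen-201 led with 58.43% and 57.68%. Aen-203 followed with 27.23% and 16.8%, and Aen-202 went from 0 to 9.89%, but both are coding and share most of their sequence. Aen-204, a processed transcript of 4428 nt, held 14.34% and 15.63% of the TPM and 25.4% and 28.1% of the counts. Aen exceeded the interferon-induced nuclease Isg20, at 0.4 and 0.19 TPM, by a log2 ratio of 2.72 ± 0.22, and did not differ beyond the limit from Isg20l2, with -0.35 ± 0.10.

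Zmat3 (ENSMUSG00000027663.8, chr3:32334792-32366014, minus strand) encodes an RNA-binding protein that p53 induces. It was the lowest of the 10, with 999 and 850 counts and 0.98 and 0.77 TPM (0.875 ± 0.149). Its counts were close to those of Cdkn1a, and the low TPM goes with its effective length of 6068.69 and 6513.61 nt. The tables gave the full-length coding RNA to Zmat3-203 in replicate 1 and mostly to Zmat3-201 in replicate 2. Reads did not separate these, with a posterior SD of 111.40 counts on a mean of 149.20 for Zmat3-201 in replicate 1, and together they held 67.0% and 74.0% of the TPM. The retained-intron transcript Zmat3-204, which covers part of the first intron, held 30.17% and 26.47% from 178.82 and 125.12 counts.

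Sequences that fit the p53 consensus lay inside 3 of the 55 quantified transcripts of the 10 genes, each a noncoding transcript that keeps intron. They are shown for their place in genes p53 is known to raise or be restrained by, in the sense of the gene, from the GENCODE transcripts, with the 10-base sites in capitals.
Zmat3-204, chr3:32364331-32364350, minus strand, 0 mismatches: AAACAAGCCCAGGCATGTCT
Trp53inp1-204, chr4:11166100-11166122, plus strand, 1 mismatch: ATGCATGTCCatgGAACATGCCC
Mdm4-207, chr1:133018307-133018335, minus strand, 1 mismatch: AGGCATGTGCcaccaggtcAGGCTAGTTT
Among noncoding transcripts of a length within 20% of each, a match was found in 7.45% of 5439 for Zmat3-204, in 3.31% of 7621 for Trp53inp1-204 and in 2.38% of 7696 for Mdm4-207. Zmat3-204 held 30.17% and 26.47% of the TPM of its gene, Trp53inp1-204 held 2.85% and 3.5%, and Mdm4-207 held 4.88% and 5.16%.

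In the order of the 10 levels from Ccng1 to Zmat3, the lowest steps, around Cdkn1a, exceeded their limit. Neighbours were set by sorting these same levels, which by itself favours small steps. Of the 9 pairs of neighbours 7 did not differ beyond their limit. Of these 7, Mdm4 over Gadd45a and Trp53inp1 over Aen passed it in CPM without length correction, at 2.50 and 1.16 against 0.76. So did Mdm2 and Trp53, with Trp53 over Mdm2 at -1.05, and Sesn1 over Trp53inp1, in the opposite direction, at -0.91. Ccng1 over Mdm4 and Gadd45a over Mdm2 passed it with coding transcripts only, at 1.72 and 1.56 against 1.05. Aen over Cdkn1a had a log2 ratio of 1.03 ± 0.18, and Cdkn1a over Zmat3 one of 1.15 ± 0.01, against a limit of 0.75. Both fell within the limit with posterior mean TPM, at 1.02 and 1.14 against 1.23, and in CPM without length correction Cdkn1a over Zmat3 was -0.06. Trp53, Sesn1, Trp53inp1 and Aen were close to each other, from 9.84 down to 7.49 TPM, and each neighbour in this run was within 0.17 on the log2 scale of the next. Of 15 pairs fixed by family or function, 12 differed beyond their limit. The share among other pairs of genes was not computed, so this count is not a result about these genes. Several of the 12 set a gene against one with few counts: Trp63, Trp73, Cdkn1c and Sesn3 held 0 to 15 counts. The 3 that did not were Trp53 with Mdm2, Ccng1 with Ccng2 and Aen with Isg20l2.

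Between the libraries, none of the 10 genes differed by more than 1.5-fold in counts scaled by TMM, a scaling to the bulk of the genes. Over 18167 nuclear genes with at least 10 counts, 31.5% did. Among the 7158 nuclear protein-coding genes with a mean of at least 800 counts, a set chosen after the data were seen to match the depth of the 10 genes, the share was 1.34%, so a count of 0 among 10 is near the background. The log2 ratios of replicate 2 to replicate 1 ran from -0.23 for Mdm4 to 0.25 for Aen, with a median of -0.02, and 5 genes were lower and 5 higher in replicate 2. In the deposited TPM 8 were lower in replicate 2 and the median was -0.23. Trp53, Mdm4, Ccng1, Trp53inp1 and Zmat3 were lower and Gadd45a and Aen higher in replicate 2 under each scaling run (TMM, DESeq2 size factors, total counts and deposited TPM), whereas Mdm2, Sesn1 and Cdkn1a lay at 0.00, 0.00 and 0.01 with TMM and at -0.32, -0.17 and -0.23 in deposited TPM. With 1 library on each side there is no test of these differences.

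**Figure D4:**
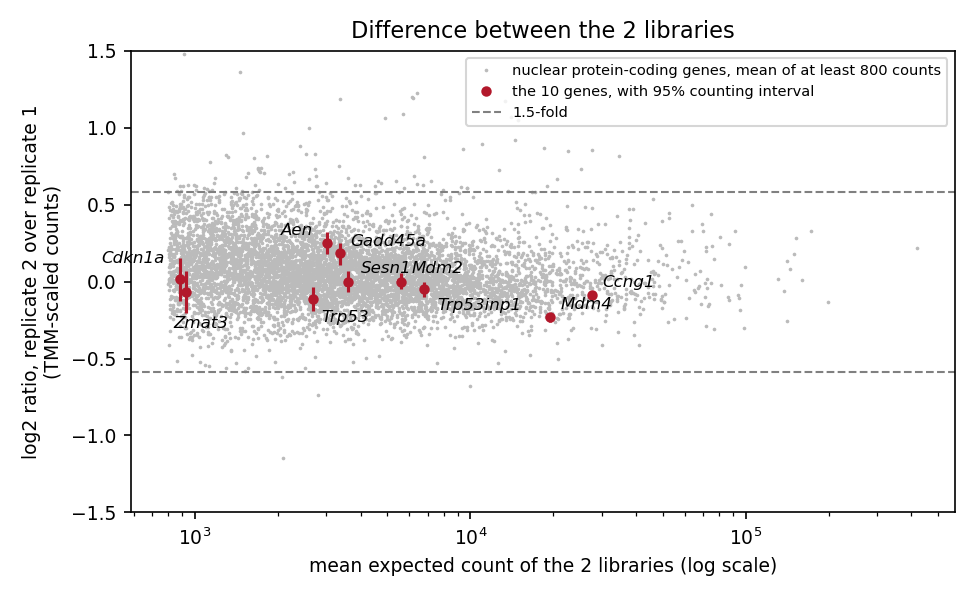
Log2 ratio of replicate 2 to replicate 1 in TMM-scaled counts against the mean expected count on a log scale, for 7156 nuclear protein-coding genes (grey, with 2 more outside the axis) and the 10 genes (red, with 95% counting intervals). All 10 lay inside the dashed lines at 1.5-fold, from -0.23 to 0.25.

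Around these genes, 66 further members of the pathway were grouped in 6 lists, and 43 of them (65.2%) were detected, with a median of 2.84 TPM. The share over all nuclear protein-coding genes, to be set beside each list, was 38.7%. The paralogs of p53 itself were nearly silent: Trp63 held 12 and 15 counts and Trp73 3 and 5, so that Trp53 exceeded them by 3.40 ± 0.14 and 3.42 ± 0.17 on the log2 scale of TPM + 1. Of 15 activators and partners of p53, 12 were detected, with a median of 6.15 TPM. The ribosomal proteins Rpl11 and Rpl5, which bind Mdm2 when ribosome assembly fails, were highest, at 104.75 and 168.7 TPM and at 61.07 and 67.39 TPM, followed by the checkpoint kinase Chek2 at 15.34 and 13.72. Both ribosomal genes share reads with other genes, with posterior SDs of 97.05 to 136.73 counts. Cdkn2a, whose Arf product holds Mdm2 back from p53, was not detected, with 2 and 0 counts. A count of 0 allows up to 3 counts, by counting error alone. The kinase Hipk2, at 0.85 and 0.96 TPM, and the p53-binding Trp53bp2, at 1.41 and 0.95, did not reach 1 TPM in both libraries.

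Restraints on p53 other than the MDM pair were expressed, 8 of 10, with a median of 10.6 TPM, above that of the other lists. Usp7, which removes ubiquitin from Mdm2 and p53, led with 27.76 and 22.95 TPM, and the ubiquitin ligases Cop1 and Huwe1 followed with 22.44 and 19.94 and with 21.25 and 16.08. Ppp1r13l was at 0.21 and 0.16 TPM, and Smyd2 held 0 counts in both libraries.

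Among the other p53 targets, fewer were detected than among the regulators: 7 of 11 genes of cell death, with a median of 2.23 TPM, and 11 of 18 of arrest, repair and metabolism, with a median of 2.30. This difference between lists was not tested, and 38.7% of all nuclear protein-coding genes were detected. Of the cell death genes Siva1 was highest, at 24.9 and 24.25 TPM, before Bax, the pore-forming protein of mitochondria, at 13.1 and 14.18, and Ei24 at 8.68 and 7.99. The death receptor gene Fas held 0 counts in both libraries, Perp held 1 and 2, Pmaip1 (Noxa) held 17 and 6, and Tnfrsf10b was at 0.44 and 0.28 TPM. Of the arrest, repair and metabolism genes Rps27l, a ribosomal protein variant, stood apart at 67.29 and 59.79 TPM, before Psrc1 at 6.95 and 6.69 and Ckap2 at 6.62 and 5.94. Ephx1 held 0 counts in both libraries and Plk2 held 4 and 1. The other members not detected were Sfn at 0.12 and 0.07 TPM, Phlda3 at 0.18 and 0.29, Eda2r at 0.66 and 0.58, Tigar at 0.87 and 0.67, and Plk3, which passed 1 TPM only in replicate 2, at 0.96 and 1.11. The paralogs of the 10 genes were detected in 5 of 10 cases, a share near the 38.7% of all nuclear protein-coding genes. The median of these paralogs was 1.05 TPM, and Ccng2, Cdkn1b and Isg20l2 led.

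**Figure D5:**
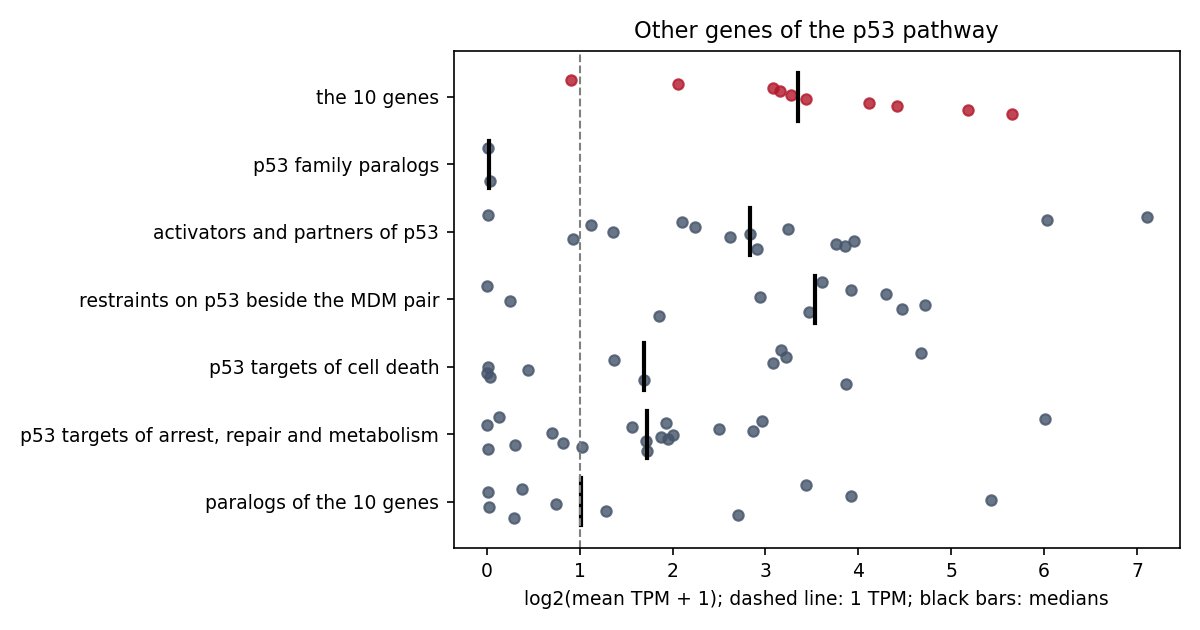
Level of each gene as log2(mean TPM + 1) in the 10 genes (red) and the 6 lists (grey), with black bars at the medians and a dashed line at 1 TPM. The p53 family paralogs lay at 0.025 and 0.01 TPM, and Rpl11, at 136.7 ± 45.2 TPM, was the furthest to the right.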

How the data were processed

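Total RNA-seq of 2 G1E libraries was used, with 1 gene and 1 transcript table per library and no pooling. Per the file headers, the authors deposited expected counts (estimated counts of reads per gene or transcript, which need not be whole), TPM, FPKM, posterior means and the transcripts' share of their gene in percent (IsoPct); FPKM was not used for results. Assembly mm10 and annotation GENCODE M4 come from the deposited read-me texts. Not given in the sources used here are the aligner, the quantifier, the strand counted and the level of the TPM interval. The 26345 rows that name no gene held 20 and 37.61 counts (3.44e-05% and 6.8e-05%) and were left out.

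Symbols, gene types, exons and transcript sequences came from GENCODE M21 on the same assembly, matched by Ensembl identifier: 42462 of 43346 genes matched, and 47 of the 55 transcripts of the 10 genes had the same length in both. Promoters came from RefSeq (GRCm38.p6), which matched 8 of the 10 genes by symbol. The 10 genes and all lists and pairs were chosen with earlier results of these data known. Named beside the 10 genes were, of each list, the 3 highest, the lowest and each gene not detected, both genes of each fixed pair, and Gata1, with the markers and overlapping genes that touch a result.

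With 1 group of 2 libraries no p-value was computed, and the spread measures these libraries only. The limit for a pair of genes was the t quantile of 4.3 (2 degrees of freedom) times the larger pooled SD of log2(TPM + 1) in the genes' ranges of level. Library ratios used expected counts with TMM factors from edgeR 4.0.16, and DESeq2 1.42.0 gave alternative size factors, in R 4.3.3; nuclear genes with 10 or more counts in the libraries together were used. A pseudocount of 1 was used, which understates ratios of low genes. Counting intervals (95%) cover counting error only, since reads carry no molecular identifiers. The library ratios and the pooled SD were tested on simulated data, and the other steps were not. Steps outside R ran in Python 3.11.15 (pandas 2.3.3, numpy 2.4.6, scipy 1.17.1, figures with matplotlib 3.10.9). Alternatives were total-count and size-factor scaling, rescaled TPM, posterior mean TPM, CPM without length, other thresholds and pseudocounts, each library alone, and coding transcripts only.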

Additional observations from a re-analysis of the deposited data

How the results depend on the processing

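The median level of the 10 genes, 9.24 TPM, became 52.7 when TPM was rescaled to nuclear protein-coding genes, by construction, and 7.50 with coding transcripts only, an alternative chosen after the data were seen. Of the 66 listed genes 43 were detected at 1 TPM and 26 at 5 TPM. With TPM rescaled to nuclear protein-coding genes, 52 of them reached 1, as did all of the 10 genes. The share of all nuclear protein-coding genes at that setting was not computed. Trp53 over Mdm2, within its limit at -0.67, passed it in CPM without length correction, at -1.05 against 0.76. Trp53 over Mdm4, -1.73, fell within its limit with coding transcripts only, at -0.60. Mdm2 over Mdm4, -1.06 against 1.05, was lost with a pseudocount of 0.1 (-1.10 against 1.10), with rescaled TPM (-1.10 against 1.17) and with posterior mean TPM (-1.06 against 1.06). With each library left out in turn it ran from -1.12 to -1.0, and without replicate 1 it was lost. Among neighbours, CPM reversed Sesn1 over Trp53inp1 to -0.91, past the limit of 0.76, and Cdkn1a over Zmat3 to -0.06, within it. Trp53inp1 and Zmat3 have the longer transcripts in these pairs. Calls were gained for Mdm4 over Gadd45a (2.50) and Trp53inp1 over Aen (1.16) in CPM, and for Ccng1 over Mdm4 (1.72) and Gadd45a over Mdm2 (1.56) with coding transcripts only. Aen over Cdkn1a and Cdkn1a over Zmat3 were within the limit of 1.23 with posterior mean TPM, at 1.02 and 1.14; the cause was not tested. No other call on a fixed pair of genes ended under the alternatives run. No paired analysis was possible because the series holds 1 group. Depth limits the minor transcripts: Cdkn1a-202 rests on 14.08 and 2.57 counts, and Trp53-204 on 0 and 20.05. A spread over 2 libraries is itself poorly known.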
